A study of Homo sapiens with 4 samples.

Results

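In the mammary epithelial line MCF10A, 944 peaks of trimethylated lysine 4 of histone H3 (H3K4me3) shared at least 500 bp with peaks of trimethylated lysine 27 (H3K27me3). They were selected on the deposited positions and widths of the peaks of these 2 marks, from the H3K4me3 peaks of chromosomes 1 to 22 that were narrower than 8000 bp, and they are called shared peaks here. The deposited H3K4me3 list holds 67904 peaks, of which 65793 lie on these chromosomes and 46461 are 500 bp to under 8000 bp wide, so that they could meet the rule. The 944 are 2.03% of those 46461. A peak within 1000 bp of an end of a protein-coding gene was placed at a gene end, and the others inside or outside genes by overlap with gene records. By place, 632 shared peaks lay at gene ends (5.41% of the 11672 H3K4me3 peaks there), 174 inside genes (0.915% of 19019) and 138 outside protein-coding genes (0.875% of 15770).

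MCF10A is an established, non-tumour-forming human breast epithelial line with basal features. The cells were grown in MEGM with cholera toxin at 100 ng/ml, with no other treatment named in the labels. The study made 4 chromatin libraries from it, 1 each for H3K4me3, H3K27me3 and dimethylated lysine 79 of histone H3 (H3K79me2), and 1 of input DNA, whose signal is not analysed here. There are no replicates, so no difference below has an error between samples or a test, and the peak lists do not give read depth. Of 27 genes of basal epithelium, 24 had an H3K4me3 peak at an end that was not a shared peak, and at 23 of these 24 that peak held H3K79me2. Over all protein-coding genes 68.6% had such a peak, and it held H3K79me2 at 81.2% of those.

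H3K4me3 is laid down by the COMPASS family of methyltransferases, often guided by CpG-rich DNA, and marks promoters that are active or ready to be used. H3K27me3 is written by Polycomb repressive complex PRC2, read by the CBX proteins of PRC1, and marks genes held silent, many of them regulators of development. Promoters that carry both marks are called bivalent, while H3K79me2, written by DOT1L, follows the passage of RNA polymerase over the first part of transcribed genes. A bulk culture cannot show whether both marks sat on the same nucleosome, on different alleles or in different cells of the culture.

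The promoters printed here lay wholly in shared peaks, with H3K27me3 over all or part of their bases. These RefSeq sequences (GRCh38.p14, 250 bases before to 50 after the start, 5′ to 3′ on the gene's strand) have each CG dinucleotide in capitals. The first 5 are the genes with most H3K27me3 bases whose promoter lay wholly in a shared peak. The last 2 have the fewest CpG among the other named genes whose promoter lay wholly in a shared peak.
DLL4 promoter, chr15:40929090-40929389, plus strand: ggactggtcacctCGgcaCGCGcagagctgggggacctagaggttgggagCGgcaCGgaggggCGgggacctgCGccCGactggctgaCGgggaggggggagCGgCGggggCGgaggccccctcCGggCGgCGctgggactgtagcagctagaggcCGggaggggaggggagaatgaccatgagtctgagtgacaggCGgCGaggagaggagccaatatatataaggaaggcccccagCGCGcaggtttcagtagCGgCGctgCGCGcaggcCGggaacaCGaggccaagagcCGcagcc
HEY2 promoter, chr6:125749382-125749681, plus strand: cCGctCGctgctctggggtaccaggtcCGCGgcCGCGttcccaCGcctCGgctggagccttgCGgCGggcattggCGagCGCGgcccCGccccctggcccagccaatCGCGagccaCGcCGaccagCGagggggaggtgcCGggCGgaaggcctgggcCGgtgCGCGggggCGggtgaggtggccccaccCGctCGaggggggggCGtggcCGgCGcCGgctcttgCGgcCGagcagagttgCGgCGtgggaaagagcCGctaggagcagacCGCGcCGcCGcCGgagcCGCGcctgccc
LHX4 promoter, chr1:180230014-180230313, plus strand: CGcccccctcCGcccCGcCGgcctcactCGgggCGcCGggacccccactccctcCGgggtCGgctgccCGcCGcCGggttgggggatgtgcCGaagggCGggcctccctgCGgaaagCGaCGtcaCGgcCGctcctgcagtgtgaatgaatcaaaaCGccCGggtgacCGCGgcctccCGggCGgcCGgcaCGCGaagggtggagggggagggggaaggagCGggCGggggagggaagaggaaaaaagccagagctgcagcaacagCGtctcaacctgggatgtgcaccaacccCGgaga
CUX2 promoter, chr12:111033915-111034214, plus strand: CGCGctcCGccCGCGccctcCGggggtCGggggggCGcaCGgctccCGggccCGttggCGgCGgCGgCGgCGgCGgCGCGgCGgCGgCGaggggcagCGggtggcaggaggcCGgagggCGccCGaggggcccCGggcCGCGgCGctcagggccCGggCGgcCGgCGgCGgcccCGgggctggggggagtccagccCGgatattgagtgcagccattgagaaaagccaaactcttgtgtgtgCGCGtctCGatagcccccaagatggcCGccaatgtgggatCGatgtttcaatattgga
NEUROG2 promoter, chr4:112516131-112516430, minus strand: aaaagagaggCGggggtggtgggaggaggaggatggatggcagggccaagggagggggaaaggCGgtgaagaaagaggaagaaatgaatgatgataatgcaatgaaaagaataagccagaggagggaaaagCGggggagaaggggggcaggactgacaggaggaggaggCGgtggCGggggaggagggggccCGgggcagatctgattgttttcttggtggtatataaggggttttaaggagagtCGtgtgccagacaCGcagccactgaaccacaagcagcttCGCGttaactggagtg
SEMA5B promoter, chr3:123028556-123028855, minus strand: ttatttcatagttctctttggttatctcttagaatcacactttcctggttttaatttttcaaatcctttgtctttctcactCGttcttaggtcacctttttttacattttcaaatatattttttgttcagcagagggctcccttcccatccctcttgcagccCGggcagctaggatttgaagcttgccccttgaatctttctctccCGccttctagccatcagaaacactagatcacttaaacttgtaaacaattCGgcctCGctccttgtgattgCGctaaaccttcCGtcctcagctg
LMOD1 promoter, chr1:201946499-201946798, minus strand: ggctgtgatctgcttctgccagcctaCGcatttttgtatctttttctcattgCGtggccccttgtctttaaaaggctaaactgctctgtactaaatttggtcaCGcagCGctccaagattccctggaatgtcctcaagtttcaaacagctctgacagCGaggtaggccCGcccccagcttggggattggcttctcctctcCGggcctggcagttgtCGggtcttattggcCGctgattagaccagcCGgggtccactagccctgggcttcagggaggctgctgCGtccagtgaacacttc

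DLL4, a Notch ligand, had 27 CpG in these 300 bases, HEY2, a Notch-responsive repressor of the bHLH family, had 43, and LHX4, a LIM-homeobox factor of the pituitary and motor neurons, had 32. CUX2, a homeobox factor of upper-layer cortical neurons, had 42. The promoter of NEUROG2, a proneural bHLH factor, had 10 CpG, although its peak was among the 10 with most H3K27me3. SEMA5B, a semaphorin of axon guidance, had 7 CpG and a GC share of 42%, and LMOD1, a smooth muscle actin regulator, had 11. The H3K4me3 peak at LMOD1 had a −log10 q of 0.265 and did not pass a q-value of 0.05. The DLL4, LHX4, NEUROG2 and LMOD1 windows lay in H3K27me3 over all 300 bp, against 74 bp at HEY2, 193 bp at CUX2 and 53 bp at SEMA5B.

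The shared peaks were CpG-rich at gene starts. Of 15101 protein-coding genes with a promoter sequence (chromosome 8 is not used here for sequence, starts or microRNA hairpins), 415 had at least 1 base of it in a shared peak, and these had a median of 31 CpG (quartiles 23 and 38) in 300 bases. The 10044 promoters in other H3K4me3 peaks had a median of 27 (quartiles 19 and 35), the 607 in H3K27me3 only a median of 5, and the 4035 in neither also 5. The distributions overlapped widely between the 2 classes with H3K4me3. Median GC content was 71.3% in shared peaks and 66% in other H3K4me3 peaks, whereas the observed over expected CpG ratio was 0.831 and 0.849, so the higher CpG number stood beside a higher GC content, not a higher ratio. Among promoters in other H3K4me3 peaks without H3K79me2 (1392 genes) the median was 23 CpG. Fewer than 10 CpG were found in 4.10% of promoters in shared peaks, in 7.87% of those in other H3K4me3 peaks, and in 62.9% of those in H3K27me3 only.

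**Figure D1:**
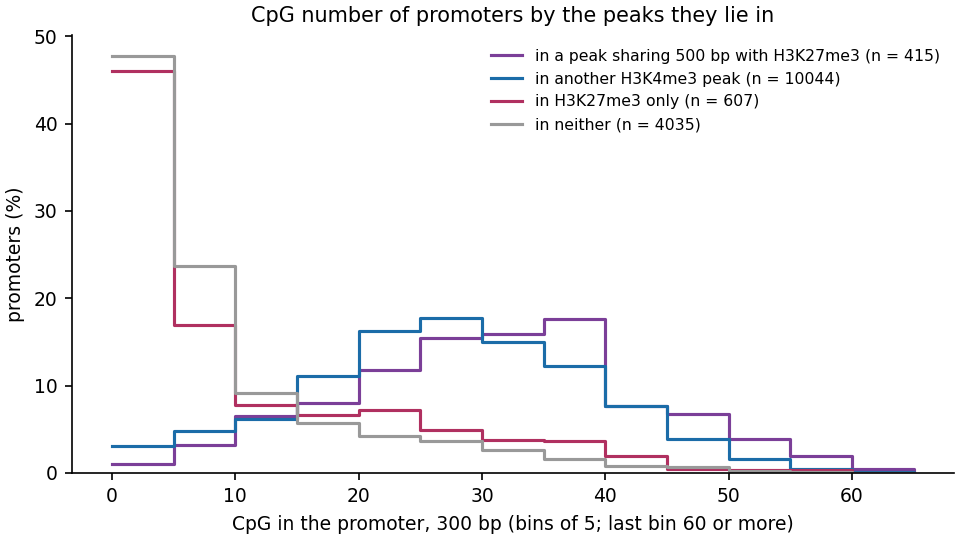
Share of promoters (y axis, %) by the number of CpG in 300 bp (x axis, bins of 5), for promoters in shared peaks, in other H3K4me3 peaks, in H3K27me3 only and in neither; n is given for each line. The line for shared peaks (median 31) lies to the right of that for other H3K4me3 peaks (median 27), and both lie far from the other 2 lines, whose medians are 5.

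Short motifs were searched on both strands of the same 300 bases. GGGCGG, the core of a GC box, was in 78.6% of promoters in shared peaks, in 72.9% of those in other H3K4me3 peaks and in 58.9% of all promoters. CCAAT was in 28.9% of promoters in shared peaks and 36.8% in other H3K4me3 peaks (36.0% of all). TATAAA was in 6.02% and 5.48% (9.71% of all), and the E-box CACGTG in 6.99% and 10.4% (8.77% of all). GGGCGG shares base composition with the CpG count and is not a separate observation.

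The values of both marks in the shared peaks follow from the rule and are given as a description. Width ranged from 525 to 7951 bp with a median of 1617.5 bp. The authors' H3K4me3 fold, a ratio over the peak caller's background, ranged from 1.77 to 25.3 with a median of 7.96. H3K27me3 covered 502 to 4025 bp of a peak (median 905 bp), which was 7.39% to 100% of its width (median 66.9%). H3K27me3 lay over the whole of 96 shared peaks and over 50% or more of 649. A shared peak usually met more than 1 H3K27me3 peak, with a median of 2 and a highest number of 11, and the highest H3K27me3 fold had a median of 4.62. At a q-value of 0.05 or below, 864 of the 944 passed for H3K4me3 and 871 met at least 1 H3K27me3 peak that passed. Folds come from separate lists on separate scales, and are set against each other between marks only in a ranking of gene-end peaks below.

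**Figure D2:**
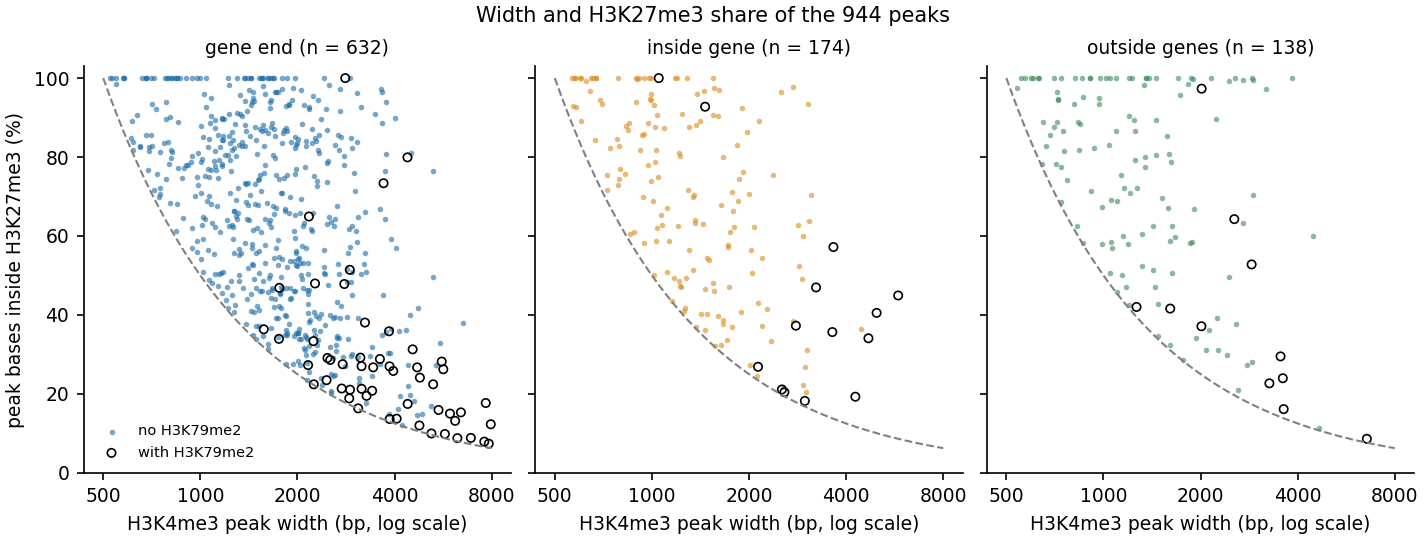
Share of each peak's bases inside H3K27me3 (y axis, %) against H3K4me3 peak width (x axis, bp, log scale), with 1 point per shared peak, by place. Open circles are peaks with H3K79me2, the dashed line is 500 bp of H3K27me3, and the 79 open circles lie mostly among wide peaks near that line.

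The thresholds cut through a continuous range. Just inside 500 bp were the shared peaks at GATM, the creatine synthesis enzyme, with 502 bp of H3K27me3, at CTSH, a lysosomal cathepsin, with 503 bp, and at ARFGEF3 with 503 bp. Just outside were the peak at DLL3, a Notch ligand family member, which was 499 bp wide and wholly covered, and the peaks at NOL4 and HID1 with 498 bp each. The widest shared peaks were those at C17orf100 and MED31 (7951 bp), GART and SON (7839 bp), and BMI1 and COMMD3 (7670 bp). Just over the limit lay a peak of 8473 bp at the cyclin gene CCND2 with 6403 bp of H3K27me3, one of 8497 bp at GLI1 and INHBE with 1480 bp, and one of 9918 bp at IGF2BP3 with 4404 bp.

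Gene ends held 66.9% of the shared peaks and 25.1% of all H3K4me3 peaks of 500 to under 8000 bp. The share of gene-end peaks that were shared peaks was highest at intermediate width. It was 7.31% at 500 to 1000 bp, 15.4% at 1000 to 2000 bp, 4.205% at 2000 to 4000 bp and 1.21% at 4000 to 8000 bp. The rule set part of this pattern, since a narrow peak needs a larger part of its width in H3K27me3 to reach 500 bp. Narrow and wide shared peaks also differed from their neighbours in fold. At gene ends their median H3K4me3 fold was 3.80 at 500 to 1000 bp (2.93 in the other peaks) and 8.10 at 1000 to 2000 bp (9.73). It was 11.6 at 2000 to 4000 bp (17.3 in the other peaks) and 14.1 at 4000 to 8000 bp (16.5). Away from gene ends the shared peaks had the higher median fold in each width bin. At gene ends they had it only at 500 to 1000 bp. Over all widths the median fold was 5.77 inside genes (2.54 in the other peaks) and 4.96 outside genes (2.62).

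Averaged along the shared peaks H3K27me3 was level. In 10 equal parts of the peak it covered between 55.5% and 57.9% of bases, with no dip at the centre. The rule selected on H3K27me3 bases inside the peak, so this is a description. Relative to gene starts, described below, H3K27me3 covered more of the bases downstream than upstream. Its coverage also changed outside the peaks. There H3K27me3 covered 43.8% of the first 1000 bp, 28.3% of the next and 10.9% at 9000 to 10000 bp. Its average over chromosomes 1 to 22 was 3.44% of their spans. The shared peaks make up 1.79 Mb, which is 1.85% of H3K4me3 bases, and the H3K27me3 in them is 1.02% of H3K27me3 bases. They were mostly single: the median distance to the next was 608084 bp, and 73 lay within 10000 bp of the next.

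H3K79me2, which the rule did not use, was scarce over the shared peaks. Of the 944, 79 (8.37%) held at least 1 bp of an H3K79me2 peak, against 47.8% of the 45517 other H3K4me3 peaks of 500 to under 8000 bp and 47.0% of all such peaks. At gene ends it was 54 of 632 (8.54%) against 77.4% (73.7% of all), and inside genes 14 of 174 (8.05%) against 59.5% (59.0% of all). Outside genes it was 11 of 138 (7.97%) against 12.9% of the other peaks and 12.9% of all, a smaller gap.

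The shared peaks also differed from the others in width and H3K4me3 fold. Weighting the other peaks to the widths and places of the shared peaks gave 49.9% with H3K79me2, and weighting them by H3K4me3 fold as well gave 43.3%. At gene ends the same weightings gave 53.5% and 44.7%, inside genes 62.7% and 56.5%, and outside genes 17.1% and 19.9%. By width at gene ends, H3K79me2 was on 0 of 77 shared peaks of 500 to 1000 bp (9.62% of the others), on 3 of 300 of 1000 to 2000 bp (32.0%), on 29 of 211 of 2000 to 4000 bp (90.6%) and on 22 of 44 of 4000 to 8000 bp (99.1%). By H3K4me3 fold at gene ends, it was on 0 of 141 shared peaks under 5-fold (17.4% of the others), 3 of 219 at 5 to 10 (32.9%), 22 of 177 at 10 to 15 (81.9%) and 29 of 95 at 15 or more (95.7%). In each of these bins the shared peaks were below the others.

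**Figure D3:**
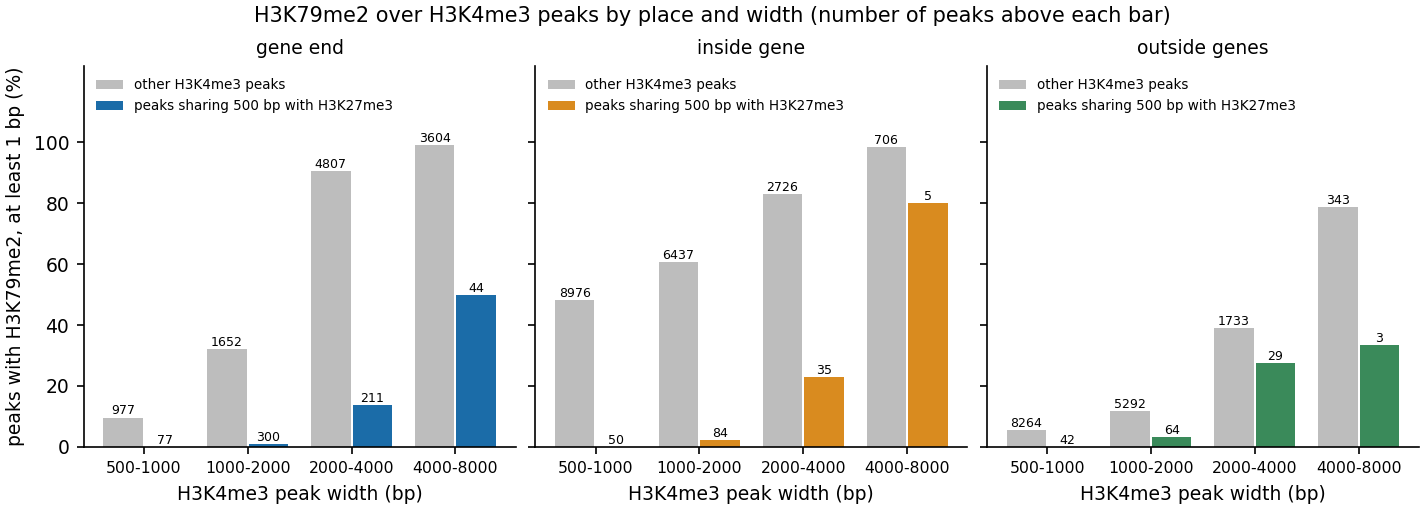
Share of H3K4me3 peaks with at least 1 bp of H3K79me2 (y axis, %) by peak width (x axis, bp) at gene ends, inside genes and outside genes; grey bars are the other peaks, coloured bars the shared peaks, and the number of peaks stands above each bar. At gene ends of 2000 to 4000 bp the shared peaks reach 13.7% and the others 90.6%.

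Within the shared peaks, H3K79me2 went with how little of the peak lay in H3K27me3. It was on 35 of 62 peaks (56.5%) with under 25% of their bases in H3K27me3, on 33 of 233 (14.2%) with 25 to 50%, on 6 of 254 (2.36%) with 50 to 75% and on 5 of 395 (1.27%) with 75% or more. Median width fell along the same bins from 3729.5 to 1234 bp, and with 500 bp required only wide peaks can have a low share. Among peaks of 2000 to 4000 bp alone, it was on 37 of 144 (25.7%) with under 50% and on 8 of 131 (6.11%) with 50% or more. By the number of H3K27me3 bases rather than the share there was little order, with 8.45% at 500 to under 1000 bp, 7.98% at 1000 to under 2000 bp and 9.68% at 2000 bp or more.

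Where all 3 marks were present, H3K79me2 covered a smaller part of the H3K27me3 bases than of the other bases. Of the 79 peaks with H3K79me2, 46 had bases inside peaks of all 3 marks, and in 16 these came to 500 bp or more. Over the 79, H3K79me2 covered 24.7% of the bases in H3K27me3 and 45.0% of the other bases. Of the 79, 23 met an H3K79me2 peak with a q-value of 0.05 or below.

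The 10 gene-end peaks with most H3K79me2 had highest H3K27me3 folds of 2.69 to 4.88, and 8 of them were below the median of all gene-end shared peaks, 4.62. GART, a purine synthesis enzyme, and SON, a splicing factor, share a start region on chromosome 21 whose peak (chr21:33539355-33547193) had 20.97-fold H3K4me3, 7839 bp of H3K79me2 and 579 bp of H3K27me3 with a highest fold of 2.86. DDX21, an RNA helicase of ribosome production, had 6898 bp of H3K79me2 and 610 bp of H3K27me3 at 2.69-fold. The peak at MTRF1, a mitochondrial release factor, and NAA16 had 5205 bp and 519 bp at 3.01-fold, and that at KIF23, a kinesin of cytokinesis, had 4778 bp and 573 bp at 3.24-fold. In these 4 peaks every H3K27me3 base also lay in H3K79me2. Taking only H3K27me3 peaks with a q-value of 0.05 or below left 0 bp at GART and SON, DDX21, MTRF1 and NAA16, and UGT8, and 245 bp at KIF23. The peak at BMI1, a PRC1 subunit, and COMMD3 kept 811 of its 1357 bp under that limit, and had 6542 bp of H3K79me2. At MED31, a Mediator subunit, LMX1B, a LIM-homeobox factor, and GLI4, a zinc finger gene, no base lay in all 3 marks, although the peaks held 4802, 3565 and 2705 bp of H3K79me2. The H3K79me2 at LMX1B did not pass a q-value of 0.05.

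Most gene-end shared peaks were at starts. Of the 450 with a gene in the promoter table, 361 (80.2%) covered a protein-coding start, and 407 (90.4%) lay within 1000 bp of one. Starts inside a shared peak were followed by little H3K79me2: 41 of 404 (10.1%) had 500 bp or more of it in the 5000 bp downstream, against 84.7% of 9932 starts in another H3K4me3 peak and 58.0% of all 15101. Of 524 starts with H3K27me3 within 1000 bp and no H3K4me3, 0.382% had it, and of 4241 with neither mark, 7.14%. Median gene length was 59825.5 bp for starts in shared peaks and 30445 bp for those in other H3K4me3 peaks.

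Around the starts the 3 marks took different shapes in genes of at least 20000 bp. At 289 starts in shared peaks, H3K27me3 covered 50.7% of bases in the 500 bp before the start, 63.3% at 500 to 1000 bp after it and 43.1% at 1500 to 2000 bp. H3K4me3 covered 95.7% of the first 500 bp and 18.3% at 1500 to 2000 bp. H3K79me2 covered 5.06% at 1500 to 2000 bp, where it covered 79.3% at 6251 starts in other H3K4me3 peaks. H3K4me3 itself ran less far into the gene at the shared peaks, with 18.3% against 69.6% at that distance, although the other peaks have no width limit here.

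**Figure D4:**
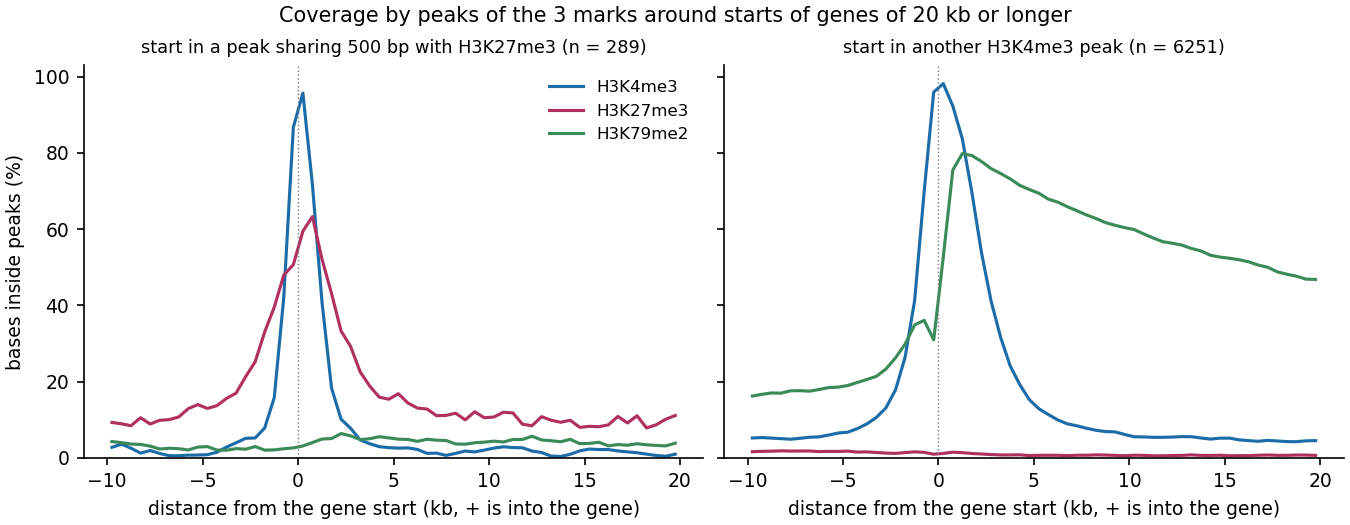
Share of bases inside peaks of each mark (y axis, %) by distance from the gene start (x axis, kb, in bins of 500 bp), for 289 starts in shared peaks and 6251 starts in other H3K4me3 peaks, in genes of 20000 bp or longer. At shared peaks H3K27me3 rises to 63.3% just after the start and H3K79me2 stays at or under 6.37%, whereas at the other starts H3K79me2 reaches 79.8%.

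The marks lay on both sides of the start. In the 376 shared peaks that covered 1 start each, H3K27me3 covered 48.4% of the bases upstream of the start and 54.1% of those downstream, and had more bases downstream in 266 peaks. In the 37 of these with H3K79me2, H3K79me2 covered 20.7% of the bases upstream and 49.96% downstream, with more bases downstream in 30. Over the pooled bases of these 37 peaks H3K27me3 covered 29.1% upstream and 18.6% downstream, but by peak it had more bases upstream in 18 and downstream in 19, so neither side led. In the 339 without H3K79me2 it covered 52.5% upstream and 63.3% downstream, with more bases downstream in 247. Peaks also reached further downstream than upstream of the start, with medians of 1112 and 676.5 bp.

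The genes with a shared peak were counted by gene. Of 19126 protein-coding genes, 675 (3.53%) had a shared peak within 1000 bp of an end, and 585 peaks met 1 gene, 46 met 2 and 1 met 3. Another 13125 genes had only other H3K4me3 peaks at their ends, 763 had at least 500 bp of H3K27me3 there without H3K4me3, and 4563 had neither. Genes with a shared peak were longer, with a median of 52781 bp against 28486 bp for those with other H3K4me3 peaks. Genes with 2 shared peaks included HOXD13, a posterior HOX gene, ID2, an inhibitor of bHLH factors, NKX6-1, a homeobox factor of pancreas and neural tube, and SDK2, an adhesion protein of the synapse.

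Genes of neurons and of development were the lists with the most shared peaks. A shared peak was at 38 of 120 genes of neuronal channels, receptors and synapses (31.7%), 17 of 88 homeobox and related factors (19.3%), 14 of 76 WNT, BMP, hedgehog and FGF signals (18.4%) and 10 of 56 axon guidance genes (17.9%). It was at 10 of 58 bHLH factors (17.2%), 5 of 33 luminal and hormone response genes (15.2%), 7 of 57 SOX, T-box, GATA and forkhead factors (12.3%), 4 of 43 mesenchymal genes (9.30%) and 1 of 27 basal genes (3.70%). No gene of the cell cycle (28) or housekeeping (22) list had one. Over all protein-coding genes the share was 3.53%, so lists this short cannot show an absence. The basal share was also near it. Some genes stand in more than 1 list, and all lists were chosen with earlier results of these data known. By symbol, potassium channel genes had 18 of 94 (19.1%) and solute carriers 11 of 372 (2.96%), near the share of all genes. Zinc finger genes named ZNF had 2 of 505 (ZNF423 and ZNF521), olfactory receptors 1 of 391 (OR52N2) and ribosomal protein genes 0 of 79. Only 12 other olfactory receptors had an H3K4me3 peak at an end, so few could have a shared peak.

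**Figure D5:**
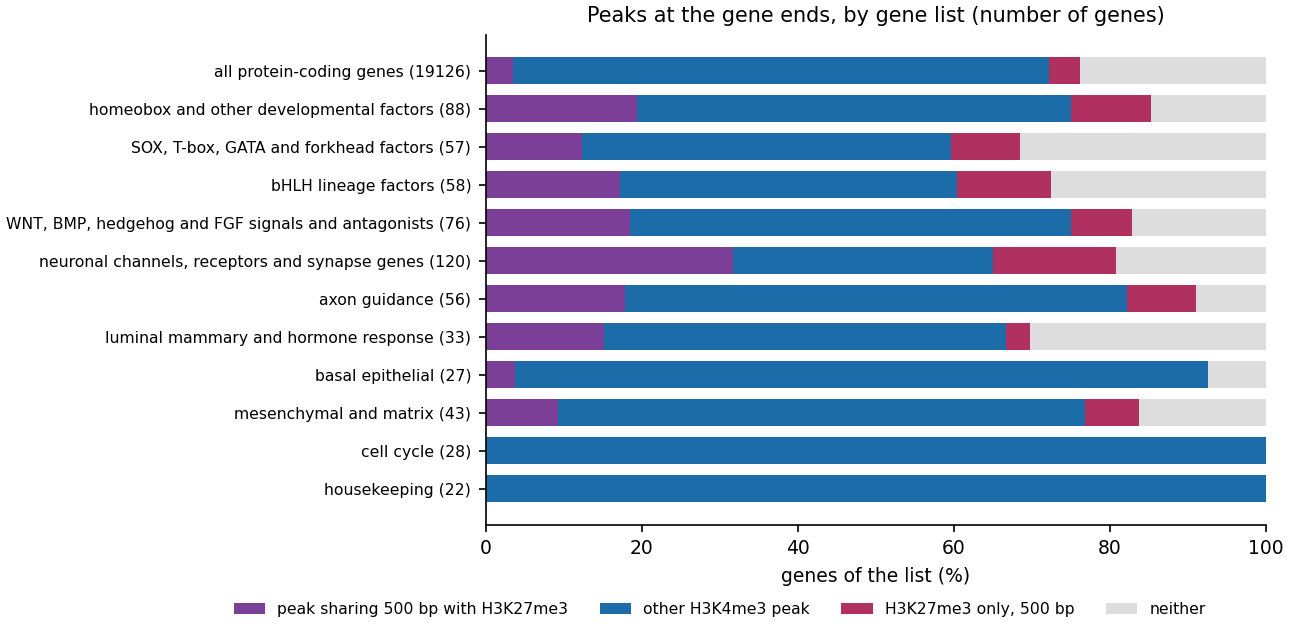
Genes of each list (y axis, number of genes in brackets) by the peaks at their ends (x axis, %): a shared peak, another H3K4me3 peak, at least 500 bp of H3K27me3 without H3K4me3, or neither. The purple segment is 31.7% for the neuronal list and 3.53% for all protein-coding genes, and it is absent from the cell cycle and housekeeping bars.

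H3K79me2 was on 66 of the 675 genes' shared peaks (9.78%), and on the H3K4me3 peaks of 10656 of the 13125 genes without one (81.2%). Within each of the 9 lists that had both kinds of gene the direction was the same. None of the 38 neuronal genes had H3K79me2 in a shared peak, and 7 of the 40 neuronal genes with other H3K4me3 peaks (17.5%) had it there. Among homeobox and related factors it was 1 of 17 (HOXD13, 22 bp) against 20 of 49 (40.8%), among signals 0 of 14 against 17 of 43 (39.5%), among bHLH factors 0 of 10 against 9 of 25 (36.0%) and among luminal genes 0 of 5 against 12 of 17 (70.6%). For the lists with under 20 such genes a difference of 1 gene moves these shares by several points.

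The gene-end peaks with most H3K27me3 were led by PRDM6, a repressor of smooth muscle genes. Its peak (chr5:123088206-123093467) had 4025 bp in H3K27me3, 76.5% of its width, and 19.4-fold H3K4me3. It lay within 1000 bp of the start of the antisense record PRDM6-AS1. The peak at PDE4A, a cyclic AMP phosphodiesterase, had 3633 bp and 6.82-fold. DLL4, whose promoter is printed above, had 3608 bp, 13.6-fold H3K4me3 and 0 bp of H3K79me2. HEY2 had 3529 bp and 8.86-fold, LHX4 3528 bp and 19.9-fold, and RIMS2, a presynaptic active zone protein, 3532 bp and 8.95-fold. Among these 10 peaks H3K4me3 ran from 2.27-fold at HELT, a bHLH factor of GABA neurons, to 19.9-fold at LHX4. The H3K4me3 peak at HELT had a −log10 q of 0.493 and did not pass a q-value of 0.05. The next lowest was CUX2 at 4.97-fold, with a −log10 q of 6.91. A large H3K27me3 share thus came with a wide range of H3K4me3 folds, also without HELT. H3K79me2 was absent from 9 of the 10, and covered 405 bp at ZNF423, a zinc finger cofactor of SMAD and bHLH signalling. The H3K79me2 at ZNF423 did not pass a q-value of 0.05.

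Strength in both lists picked out other genes. Ranked by the smaller of the H3K4me3 fold and the highest H3K27me3 fold, the first was BATF3, an AP-1 family factor of dendritic cells, with 12.1-fold H3K4me3 and 10.02-fold H3K27me3 over all 2921 bp. CBX6, itself a PRC1 subunit that reads H3K27me3, came next with 18.97-fold and 9.30-fold. In its peak, 1233 bp of H3K27me3 and 1139 bp of H3K79me2 shared 0 bp. The H3K79me2 at CBX6 did not pass a q-value of 0.05. EFNA3, an ephrin, had 11.4-fold and 8.93-fold, RCAN2, a calcineurin regulator, 13.5-fold and 8.58-fold, and HOXB9 15.1-fold and 8.47-fold over 98.4% of its peak. RCAN2's peak was 94.6% covered, and CHRM4, a muscarinic receptor, C11orf96, CACNA1G, a calcium channel, and STUM made up the rest of the 10 with RIMS2. H3K79me2 was on 1 of these 10 peaks.

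Of the transcription factors, HOXB9 and HOXA13 carried shared peaks of 2512 and 1318 bp with 2471 and 1094 bp in H3K27me3. EMX1, a forebrain homeobox factor, had 2909 bp and 9.502-fold H3K4me3, POU3F2, a neural POU factor, 2483 bp and 10.7-fold, and PAX2, a kidney and ear regulator, 2439 bp and 4.76-fold. HOXA13 had 11.1-fold H3K4me3, and its peak also lay within 1000 bp of the start of the noncoding gene HOTTIP. In the SOX and forkhead list, FOXN4 was covered over all 1621 bp and had 10.3-fold, SOX5 had 1615 bp and 14.5-fold, and FOXF1 1602 bp and 5.76-fold. FOXQ1 differed from these: its peak of 6424 bp was 15.3% covered, with 984 bp of H3K27me3, 15.1-fold H3K4me3 and 150 bp of H3K79me2. The H3K79me2 at FOXQ1 did not pass a q-value of 0.05. In the bHLH list, ATOH8 was wholly covered (1964 bp), ID4, an inhibitor of bHLH factors, had 2148 bp, NPAS1 1917 bp, and BHLHE41, a clock-linked repressor, 1472 bp in a peak of 5380 bp and 17.7-fold. The peaks at FOXN4 and BHLHE41 also met an end of a neighbour, MYO1H and SSPN.

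Of the secreted signals, WNT3A was covered over all 1516 bp, with 9.09-fold H3K27me3 and 3.48-fold H3K4me3. WNT1 had 1635 bp of H3K27me3 and 3.06-fold H3K4me3, WNT7B 2310 bp and 13.9-fold, and FGF9 2491 bp in a peak of 6544 bp and 15.998-fold. BMP6 had 1414 bp and 8.37-fold, and CHRD, the BMP antagonist chordin, 1209 bp and 12.6-fold. The H3K4me3 fold over the 14 genes of this list ran from 1.91 at SHH to 15.998 at FGF9, with a median of 9.45. The axon guidance receptors PLXNC1 (2180 bp), UNC5C (1062 bp) and EPHA6 (907 bp) and the ligands EFNA3 (1991 bp), SEMA5B (1936 bp) and EFNB3 (996 bp) had 6.73-fold to 16.1-fold H3K4me3. The values of receptors and ligands overlapped in both marks. The Notch ligand DLL1, named after its values were seen, had 2865 bp and 9.43-fold, so 2 Notch ligands carried shared peaks and DLL3 fell just below 500 bp.

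Of the neuronal genes, SSTR2, a somatostatin receptor, had 2627 bp of H3K27me3 and 3.49-fold H3K4me3, and SHANK2, a postsynaptic scaffold, 1701 bp and 9.89-fold. SLC17A7, the vesicular glutamate transporter, had 1654 bp and 11.5-fold, KCNH5, a potassium channel, 1582 bp and 9.21-fold, and ADRA2A, an adrenergic receptor, 1452 bp and 15.8-fold. Over the 38 genes the median was 936.5 bp of H3K27me3 and 7.85-fold H3K4me3, with a range of 2.07 to 17.5-fold. GABRA4 and GABRB1, neighbouring GABA receptor subunits, share 1 peak of 614 bp.

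Among mammary genes, NGFR, a neurotrophin receptor counted with the basal and the neuronal list, had 2945 bp (96.2%) in H3K27me3, 6.84-fold H3K4me3 and 0 bp of H3K79me2. It was the basal gene with a shared peak. Of the luminal genes, CD24, a surface glycoprotein, had 1484 bp of a peak of 4125 bp and 19.6-fold, KIT, a receptor of luminal progenitors, 1191 bp and 12.5-fold, and PRLR, the prolactin receptor, 768 bp and 10.04-fold. PROM1, known as CD133, was covered over all 792 bp with 4.67-fold H3K4me3, and WNT4, a progesterone-induced signal, had 667 bp and 11.8-fold. The H3K27me3 at CD24 and WNT4 was weaker, with a highest fold of 3.46 at each against 8.47 at PROM1. The mesenchymal genes were MYLK (732 bp, 13.3-fold H3K4me3), LMOD1 (576 bp, 2.005-fold), MMP2 (553 bp, 7.97-fold) and PDGFRA (513 bp, 5.31-fold). Of these, LMOD1 did not pass a q-value of 0.05 for H3K4me3. H3K79me2 was at 0 bp in all of these mammary and mesenchymal peaks.

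Shared peaks inside genes were narrower, with a median width of 1346 bp, against 1764 bp at gene ends, and had a median H3K4me3 fold of 5.77, against 8.96. Of 174, 38 lay within 1000 bp of a protein-coding start of the promoter table, 18 within 1000 bp of a noncoding start only and 118 near neither. No start of chromosome 8 is used, so the 118 include the shared peaks inside genes there, whatever starts lie near them. The largest H3K27me3 was in SLC30A3, a zinc transporter of synaptic vesicles, with 2839 bp (93.5%) and 6.88-fold H3K4me3. SATB1, a chromatin organiser, had 2687 bp and 11.7-fold, AGAP2 2420 bp and 4.46-fold, and PROX1, a regulator of lymphatic and neural fate, 2191 bp and 16.9-fold, within 1000 bp of the start of PROX1-AS1. H3K79me2 was on 3 of the 10 peaks inside genes with most H3K27me3. ATF3, a stress-induced AP-1 family factor, had 2195 bp of H3K79me2, 2015 bp of H3K27me3 and 18.9-fold H3K4me3, with 353 bp in all 3. EYA1, a cofactor of ear and kidney development, had 1321 bp of H3K79me2 and 2606 bp of H3K27me3 with 859 bp in all 3, and TCHH, a hair follicle protein, 291 bp and 2090 bp. The H3K79me2 at ATF3 passed a q-value of 0.05, and that at EYA1 and TCHH did not. At PAX5, a B cell regulator, EBF4 and GALNT13 the peaks had 1968, 1920 and 1786 bp of H3K27me3 and no H3K79me2.

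Shared peaks outside protein-coding genes had a median width of 1290 bp, an H3K4me3 fold of 4.96 and 78.5% of their bases in H3K27me3. Of 138, 49 lay at an end of another gene record, 14 within one and 75 in none, and the median distance to a protein-coding end was 26538.5 bp. A group of 3 near CBX8, a PRC1 subunit, spanned 14773 bp. Its largest peak had 9.01-fold H3K4me3 and 2682 bp of H3K27me3, and H3K79me2 was at 0 bp in all 3. Another lay near TMEM161B with 2049 bp and 4.39-fold.

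Part of the set outside genes came from stretches next to centromeres. In 3 stretches, on chromosomes 1, 2 and 9 (shared peaks within chr1:143496889-144884378, chr2:90322770-94804602 and chr9:40649207-65764081), 21 of 287 H3K4me3 peaks (7.32%) were shared peaks, 20 of them outside genes, and they include 8 of the 10 outside genes with most H3K27me3. There the median share in H3K27me3 was 99.6%, the median of the widest H3K27me3 peak 3257 bp and of the highest H3K27me3 fold 8.42. The 118 other shared peaks outside genes had 73.1%, 811 bp and 4.23. The highest was at chr1:144076090-144078791, with 18.8-fold H3K4me3 and 11.1-fold H3K27me3. Copies of repeated sequence are common in such regions, and the sources used here do not say how reads with several matches were placed, so the part of mapping in these values was not tested. Without the stretches the shared peaks came to 923, and 118 lay outside genes.

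Few microRNA genes were near shared peaks. Within 1000 bp lay 16 of the 1461 RefSeq hairpins used here (1.10%). The sequences shown are from 2 hairpins near peaks with no H3K79me2, followed by 2 of the MIR17 cluster, whose peak held much of it; capitals are the seed, bases 2 to 8, and letters are 5′ to 3′.
hsa-miR-9-5p from MIR9-1, chr1:156420392-156420414, minus strand: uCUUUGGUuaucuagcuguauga
hsa-miR-129-5p from MIR129-2, chr11:43581408-43581428, plus strand: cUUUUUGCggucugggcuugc
hsa-miR-17-5p from MIR17, chr13:91350618-91350640, plus strand: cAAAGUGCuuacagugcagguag
hsa-miR-20a-5p from MIR20A, chr13:91351072-91351094, plus strand: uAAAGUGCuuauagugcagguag

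The same mature miR-9-5p, a microRNA of neural progenitors, is made from MIR9-2, so 2 of its source genes had a shared peak. The peak at MIR9-1 (1450 bp) had 7.37-fold H3K4me3 and 1166 bp of H3K27me3, and that at MIR9-2 (704 bp) had 3.81-fold and was wholly covered. MIR129-2, also expressed in brain, had 7.18-fold and 2184 bp. H3K79me2 was at 0 bp in all 3. The cluster of MIR17, MIR18A, MIR19A, MIR20A, MIR19B1 and MIR92A1, known for roles in proliferation, lay in 1 peak of 6554 bp with 17.0-fold H3K4me3, 565 bp of H3K27me3 and 5740 bp of H3K79me2. miR-17-5p and miR-20a-5p share the seed AAAGUGC. These 6 hairpins share a single peak and count once. Other hairpins near shared peaks were MIR4787, MIR3621, MIR1915, MIR3663, MIR3665, MIR4520-1 and MIR4520-2.

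By chromosome, shared peaks were 1.25% of H3K4me3 peaks of 500 to under 8000 bp on chromosome 18 and 3.12% on chromosome 20, with chromosome 19 at 2.87%. There were 7 groups of 3 shared peaks with gaps of at most 50000 bp between neighbours. These included the intestinal homeobox gene CDX2 on chromosome 13, with 2.04 to 4.31-fold H3K4me3 over 12925 bp, and EVX2 with HOXD13 at the 5′ end of the HOXD cluster, with 3.998 to 7.85-fold over 19129 bp.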

How the data were processed

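Chromatin immunoprecipitation and sequencing of MCF10A gave 1 peak list each for H3K4me3, H3K27me3 and H3K79me2, called per library. Per the submitters' processing notes, Bowtie2 2.3.1, MACS2 2.1.1 and the build hg38 were used. The sources used here do not say how the input, duplicates and multiple matches were handled. The authors' fold of a peak is a ratio to the background of the peak caller, and the deposited −log10 q is the caller's own value. The deposited −log10 p, the peak score and the summit offset were not used. Values describe peaks within a list.

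Genes (19126 protein-coding on chromosomes 1 to 22), promoters and microRNAs came from RefSeq tables of GRCh38.p14, the same build. Bases were intersected in Python 3.11.15 with numpy 2.4.6 and pandas 2.3.3. On simulated intervals the arithmetic had 0 mismatches with a base-by-base count. Gene ends are both ends of a record. A promoter was classed by the first of shared peak, other H3K4me3 peak and H3K27me3 peak in which it had a base. Other peaks were weighted in 4 width bins per place. Depth is unknown from peak lists, and there is no replicate, so no test was run.

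The members and the 11 gene lists (617 entries) were chosen with earlier results of these data known. Named genes were, per place, the 10 peaks with most H3K27me3 bases. At gene ends the 10 with the highest smaller fold, the 10 with most H3K79me2 and genes with several peaks were added, with up to 6 genes per list and the peaks next to both thresholds. Names given for counts of 5 or fewer, clusters, the fold extremes and DLL1 were chosen after their values were seen. Alternatives were other limits on shared bases, width, q-value, fold, gene ends and H3K79me2. Weighting by fold and leaving out the centromere stretches were chosen after seeing the data.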

Additional observations from a re-analysis of the deposited data

Results flagged for a closer look

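Shared marks also occurred outside the set described. On chromosome X, 49 of 1988 H3K4me3 peaks were narrower than 8000 bp and had at least 500 bp in H3K27me3. On chromosomes 1 to 22, 5 of 654 H3K4me3 peaks of 8000 bp or more had at least 500 bp in H3K27me3, at or near CCND2, GLI1 and INHBE, IGF2BP3, PTPRD and LTBP4. No control library with a peak list is analysed here to set beside these counts.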

How the results depend on the processing

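The number of shared peaks depended on the limit: it was 1765 at 250 bp, 388 at 1000 bp, 2133 at 25% of the width and 318 where only H3K27me3 peaks of at least 5-fold counted, of which 213 were at gene ends, 56 inside genes and 49 outside. With H3K4me3 at −log10 q of at least 5, 106 lay inside and 78 outside genes, and with ends of all gene records 75 lay outside. The share of shared peaks with H3K79me2 was 5.70% with H3K27me3 at q of 0.05 or below (47.7% of the other peaks), 3.46% with H3K27me3 at 5-fold (47.3%) and 11.03% with H3K4me3 at −log10 q of at least 5 (70.5%). It was 5.40% for at least 500 bp of H3K79me2 (40.5%), 12.1% within 2000 bp (57.0%), 2.44% with the q limit of 0.05 on H3K79me2 (33.6%) and 0.424% with the −log10 q limit of 5 on it (9.66%). Under each of these settings the shared peaks were below the others. Of the 92 named peaks, 80 kept 500 bp at H3K27me3 q of 0.05 or below and 49 at 5-fold. List counts and the median CpG stayed within 1.5 times, or within their spread, of the values given, under the alternatives run for them. Depth is unknown, so absence of H3K79me2 means absence of a called peak. No paired analysis was possible because each mark has 1 library.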
